A study of Mus musculus with 12 samples.

Results

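The complement system is a cascade of plasma proteins and cell receptors that marks particles for uptake, recruits leukocytes and can perforate membranes. Its genes were followed here in whole mouse liver as a set of 30 genes chosen by symbol, among them Cfd, which encodes adipsin (complement factor D). All 30 were found among the 14822 gene symbols of the deposited table, and 29 of them passed the filter for testing, at least 1 TPM in at least 4 of the 12 libraries. TPM (transcripts per 1000000) is a level scaled for transcript length and for the total of the library, so that levels of different genes can be set side by side. The gene left out was C3ar1, at 0.2 to 0.9 TPM.

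The libraries came from liver of C57BL6/J mice in 3 groups of 4. The chow group ate chow and received saline vehicle. The MASH vehicle group ate a diet that induces metabolic dysfunction-associated steatohepatitis (MASH, a fatty and inflamed liver) and received the same vehicle. The FGF21 group ate the MASH diet and received FGF21, an endocrine fibroblast growth factor, at 1 mg per kg per day. Treatment lasted 4 weeks in each case. The labels give no age, sex or cage, and do not say whether libraries come from different animals, so the p-values measure the spread between these libraries, which may be technical.

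Complement is started along several routes. In the classical route C1q, built of the chains C1qa, C1qb and C1qc, binds antibody or damaged cells and activates the proteases C1r and C1s, which cut C4 and C2. In the lectin route the sugar-binding proteins Mbl1, Mbl2, Colec11 and Fcna act through the proteases Masp1 and Masp2. The alternative route amplifies the signal, when factor B (Cfb) joins C3b and is cut by adipsin into an active convertase that properdin (Cfp) stabilises. All routes converge on C3 and then on C5 (Hc in the mouse), C6, C8 and C9, which with further proteins form the membrane attack complex. Hepatocytes make most of these plasma proteins. Macrophages are a main source of C1q and properdin, and fat cells are the classical source of adipsin.

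The tissue label was checked against marker genes. The 6 hepatocyte markers summed to 38677 to 63949 TPM per library, with Alb among them. FGF21 replicates 1 and 3 stood apart from the other libraries. Their deposited totals fell short of 1000000 TPM by 7968 and 8206, against 110 to 158 in chow and MASH vehicle, 112 in FGF21 replicate 2 and 1217 in FGF21 replicate 4. Cela1, an elastase best known from pancreas and the only one of 6 acinar pancreas markers in the table, was at 428.5 and 578.3 TPM in them and at 28.2 to 74.6 in the other 10 libraries. For comparisons of the FGF21 group, counts of calls in the complement set are given with and without FGF21 replicates 1 and 3. Tests of marker genes and of complement genes outside the set are given with all libraries only. Whether those calls depend on replicates 1 and 3 was not tested. Read depth cannot be recovered from TPM and is unknown here. Because the RNA is from whole liver, fewer cells of a type and less RNA per cell cannot be told apart.

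Promoter sequences are shown for Cfd, which had the largest change, for 2 neighbouring C1q chains that rose together, and for C8b and C9, the members of the membrane attack complex that fell most. They are RefSeq windows on GRCm38.p6 from 250 bases before to 50 bases after the start site, written 5′ to 3′ on the strand of the gene. RefSeq windows were matched for 23 of the 30 genes. Capitals mark matches on either strand to GAGGAA, the core bound by the myeloid factor PU.1, to TTGCNNAA, a form of the C/EBP site, and to GTTAAT, a short form of the site of the hepatocyte factor HNF1.

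Cfd (chr10:79890603-79890902, plus strand): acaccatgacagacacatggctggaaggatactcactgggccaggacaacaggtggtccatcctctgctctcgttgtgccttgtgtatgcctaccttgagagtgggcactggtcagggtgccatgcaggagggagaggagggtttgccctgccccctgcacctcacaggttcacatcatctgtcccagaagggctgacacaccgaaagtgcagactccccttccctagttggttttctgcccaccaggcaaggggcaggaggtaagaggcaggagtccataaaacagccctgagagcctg
C1qb (chr4:136886151-136886450, minus strand): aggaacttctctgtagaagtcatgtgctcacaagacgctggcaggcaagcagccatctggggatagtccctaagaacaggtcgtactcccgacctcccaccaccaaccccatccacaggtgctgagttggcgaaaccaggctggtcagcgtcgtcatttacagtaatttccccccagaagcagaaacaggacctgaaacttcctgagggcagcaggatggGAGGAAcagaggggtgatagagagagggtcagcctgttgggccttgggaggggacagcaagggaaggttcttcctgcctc
C1qc (chr4:136892865-136893164, minus strand): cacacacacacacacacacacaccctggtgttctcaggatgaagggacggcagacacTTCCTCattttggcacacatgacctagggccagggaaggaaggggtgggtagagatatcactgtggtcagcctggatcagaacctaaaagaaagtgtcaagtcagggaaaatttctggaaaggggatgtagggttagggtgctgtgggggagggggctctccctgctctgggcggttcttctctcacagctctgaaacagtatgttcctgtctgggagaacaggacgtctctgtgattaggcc
C8b (chr4:104766067-104766366, plus strand): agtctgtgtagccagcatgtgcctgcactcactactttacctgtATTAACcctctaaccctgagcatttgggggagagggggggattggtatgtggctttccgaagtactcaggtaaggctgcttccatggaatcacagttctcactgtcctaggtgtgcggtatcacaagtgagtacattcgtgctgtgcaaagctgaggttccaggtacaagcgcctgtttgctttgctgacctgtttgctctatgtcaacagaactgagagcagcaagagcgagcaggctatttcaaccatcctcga
C9 (chr15:6445096-6445395, plus strand): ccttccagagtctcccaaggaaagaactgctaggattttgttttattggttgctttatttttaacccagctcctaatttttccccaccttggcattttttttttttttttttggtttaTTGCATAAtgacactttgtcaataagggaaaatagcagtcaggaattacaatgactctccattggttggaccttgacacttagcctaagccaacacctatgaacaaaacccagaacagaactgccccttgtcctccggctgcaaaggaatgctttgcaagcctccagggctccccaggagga

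The C1qb and C1qc windows each held 1 match to GAGGAA, the C8b window 1 to GTTAAT and the C9 window 1 to TTGCNNAA. The matches did not overlap. None of the 3 motifs was found in the Cfd window, which says only that these letters are not in this stretch. Of 32851 RefSeq promoter windows of the same length, 28.3% held GAGGAA, 10.8% TTGCNNAA and 7.1% GTTAAT, so a match is a description and not a site.

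On the MASH diet complement genes changed in both directions. The 3 C1q chains, 3 of the 4 lectins and all 3 alternative pathway genes rose against chow, while 4 of 6 genes of the membrane attack complex and 2 of 5 regulators fell. C3 itself did not pass the test. In all, 10 of the 29 tested genes rose and 6 fell on the MASH diet (limma, adjusted p under 0.05), where 29.5% and 7.84% of all 10988 genes tested were called higher and lower. The share of higher calls was thus near that of all genes, and 4 of 7 classical and 3 of 6 lectin genes were not called. One of the 10, the receptor gene C5ar1, passed the filter on low values only through its MASH vehicle libraries and so had to differ. The other 28 genes held 9 higher and 6 lower calls. Groups did not overlap for 12 higher and 6 lower genes, against 33.1% and 9.52% of all genes. The median log2 fold change was 0.10 over the 29 genes and 0.19 over all genes tested.

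**Figure D1:**
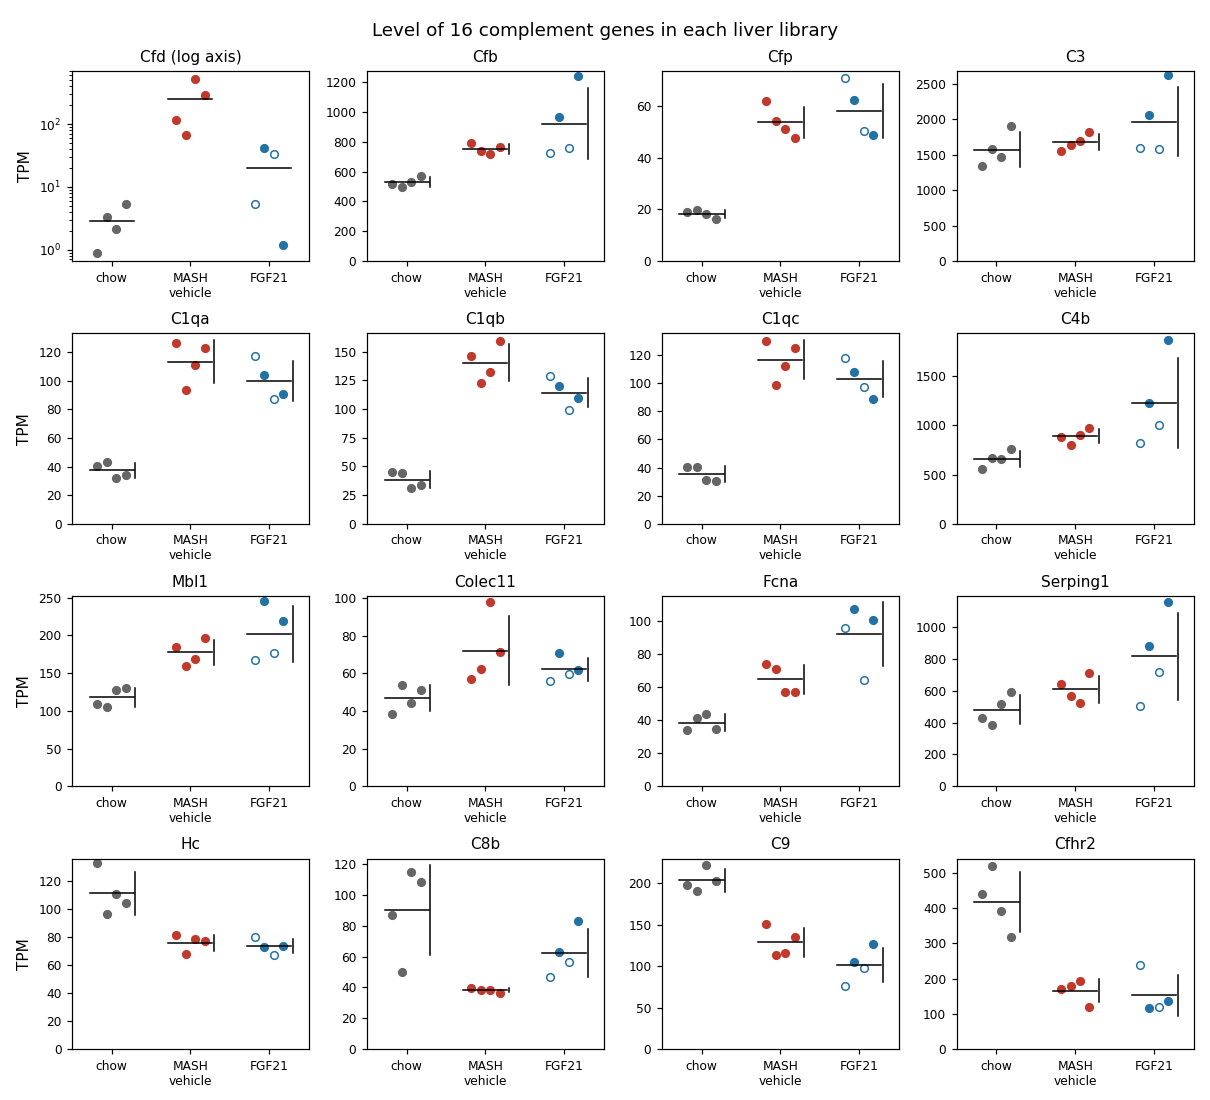
Level in TPM of 16 complement genes in each of the 12 libraries, by group. Dots are libraries, horizontal bars are group means and vertical bars ±1 SD (none for Cfd, which has a log axis), and open circles are FGF21 replicates 1 and 3. Cfd ran from 66.6 to 515.3 TPM in MASH vehicle and from 0.9 to 5.3 in chow, and for C9, Hc and Cfhr2 every MASH vehicle library lay below all chow libraries.

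Among the genes of the alternative pathway Cfd (chromosome 10, 79890853 to 79892655 on GRCm38) moved most. It was at 0.9, 3.3, 2.1 and 5.3 TPM in chow, 116, 66.6, 515.3 and 295.7 in MASH vehicle and 5.3, 41, 33.3 and 1.2 in FGF21. Every MASH vehicle library was above every chow and every FGF21 library, and within MASH vehicle the highest was several times the lowest. The log2 fold change on the scale of TPM + 1, used for all fold changes here, was 5.71 ± 0.848 for MASH vehicle against chow (SE, limma adjusted p = 0.00026). With FGF21 Cfd fell by 3.97 ± 0.848 on the log2 scale against MASH vehicle (limma adjusted p = 0.0123). FGF21 replicates 1 and 4 lay within the chow range and replicates 2 and 3 above it. FGF21 against chow did not pass (log2 fold change 1.74, 95% interval -0.08 to 3.57, limma adjusted p = 0.0984), and did pass without FGF21 replicate 4 (limma adjusted p = 0.0205). Ranked by mean level among the 30 genes, Cfd was number 28 in chow, 9 in MASH vehicle and 27 in FGF21.

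Among the fat cell markers, Adipoq and Retn were near 0 where Cfd was high, and Adrb3 was not. Of 6 adipocyte markers, Adipoq, Retn, Adrb3 and Trarg1 were in the table. Adipoq, which encodes adiponectin, was at 0.2, 0.1, 0.2 and 0 TPM in the 4 MASH vehicle libraries, where Cfd was highest. Retn (resistin) was at 0 to 0.2 there. Trarg1 was at 0.3 to 0.4 TPM in MASH vehicle and 0.1 to 0.2 in chow, and Adrb3 at 4.1 to 7.8 and 4.9 to 11.2. In FGF21 replicates 1 and 3, the libraries with high Cela1, Adipoq was at 2 and 1.9 TPM, while Cfd was at 5.3 and 33.3. The 4 markers summed to 5.1 to 11.4 TPM in chow, 4.6 to 8.6 in MASH vehicle and 14.1 to 21.3 in FGF21, most of it Adrb3, the beta-3 adrenergic receptor gene, which was called higher in FGF21 than in MASH vehicle (limma adjusted p = 0.00375). Without FGF21 replicates 1 and 3 the log2 fold change of Cfd against MASH vehicle was -4.28 (limma adjusted p = 0.0341). Whether fat cells were a source of Cfd was not tested.

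**Figure D2:**
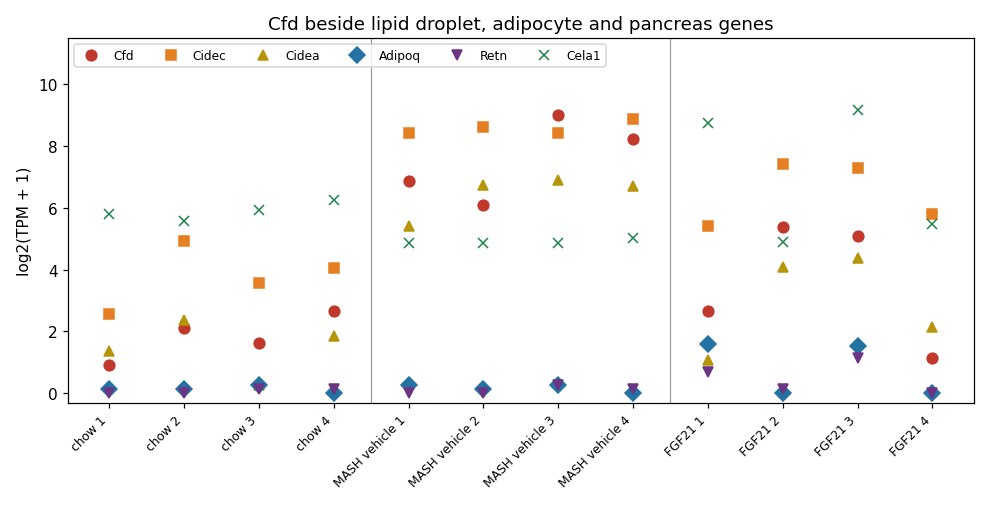
Level of Cfd, of the lipid droplet genes Cidec and Cidea, of the adipocyte genes Adipoq and Retn and of the pancreas gene Cela1 as log2(TPM + 1) in each library, with vertical lines between groups. Cfd, Cidec and Cidea are highest in the 4 MASH vehicle libraries, where Adipoq and Retn are at or near 0, and Cela1 is highest in FGF21 replicates 1 and 3.

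Cfb, the protease component of the alternative convertase (chromosome 17, 34856374 to 34862518), was at 513.9, 498.3, 529.9 and 574.1 TPM in chow, 789.3, 740.5, 715.1 and 764.7 in MASH vehicle and 725.2, 967.4, 756.5 and 1238.9 in FGF21. All MASH vehicle libraries were above all chow libraries. The log2 fold change was 0.51 ± 0.144 (limma adjusted p = 0.0149). It was no longer called with median-of-ratios scaling (limma adjusted p = 0.175) or with the trend on GC content removed (0.421). Cfp, which encodes properdin (X chromosome, 20925454 to 20931555), was at 18.9, 19.8, 18.3 and 16.1 TPM in chow, 61.7, 54, 51.2 and 47.7 in MASH vehicle and 70.8, 62.2, 50.4 and 48.9 in FGF21. No library on the MASH diet, with or without FGF21, came near the chow range. Cfp rose by 1.5 ± 0.132 on the log2 scale against chow (limma adjusted p = 5.61e-06) and differed from MASH vehicle by 0.10 with FGF21 (95% interval -0.18 to 0.39, limma adjusted p = 0.669).

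C3, the point where the routes meet and the most abundant of the 30 genes in each group (chromosome 17, 57203970 to 57228136), was at 1334.2, 1574.4, 1469.3 and 1907.6 TPM in chow, 1555.4, 1629.2, 1687.8 and 1820 in MASH vehicle and 1596.6, 2056.2, 1580.5 and 2615.3 in FGF21. The 3 groups overlapped, and the largest value was in FGF21 replicate 4. No comparison of C3 passed (limma adjusted p = 0.629 for the diet comparison, 0.456 for FGF21 on the MASH diet and 0.121 for FGF21 against chow). FGF21 against chow did pass with a replicate block (0.0363) and without FGF21 replicates 1 and 3 (log2 fold change 0.57, limma adjusted p = 0.00606).

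The C1q chains rose together. Their genes lie side by side on chromosome 4, C1qb at 136880129 to 136886187, C1qc at 136889804 to 136893065 and C1qa at 136895917 to 136898803. C1qa was at 40.7, 42.9, 32.2 and 33.8 TPM in chow, 126.3, 93.2, 111.3 and 122.8 in MASH vehicle and 117.2, 104.3, 87.3 and 90.7 in FGF21. C1qb was at 44.9, 44.2, 30.9 and 34.1 TPM in chow, 146, 122.5, 132.7 and 159.5 in MASH vehicle and 128.9, 119.9, 99.3 and 109.3 in FGF21. C1qc was at 40.6, 40.4, 30.9 and 30.2 TPM in chow, 130, 99, 112.3 and 124.9 in MASH vehicle and 118, 108, 97.6 and 88.5 in FGF21. For each chain all 8 libraries on the MASH diet were above all 4 chow libraries. The log2 fold changes against chow were 1.58 ± 0.136, 1.85 ± 0.139 and 1.69 ± 0.136 for C1qa, C1qb and C1qc (limma adjusted p = 4.99e-06, 2.98e-06 and 3.24e-06).

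The chains kept close to equal levels in every library. C1qb made up 32.9% to 39.2% of their summed TPM, C1qa 29.6% to 34.5% and C1qc 30.7% to 34.3%. With FGF21 the chains stayed above chow (log2 fold changes 1.39, 1.56 and 1.52, limma adjusted p at most 2.52e-05). Against MASH vehicle they differed by -0.18, -0.29 and -0.18 (95% intervals -0.47 to 0.11, -0.59 to 0.01 and -0.47 to 0.12), which did not pass (limma adjusted p = 0.434, 0.207 and 0.448).

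Macrophage markers moved with the C1q chains and with Cfp in the diet comparison. All 5 general macrophage markers and 5 of 6 markers of Kupffer cells, the resident macrophages of liver, were called higher in MASH vehicle than in chow. Of all genes tested, 29.5% were called higher in that comparison. The general markers summed to 26.8 to 35.4 TPM in chow, 105.1 to 126.1 in MASH vehicle and 75.9 to 126.2 in FGF21. Set against that sum, the 3 chains together stood at ratios of 3.09 to 4.01 in chow, 2.83 to 3.39 in MASH vehicle and 2.29 to 3.74 in FGF21, which overlap. The 6 Kupffer markers summed to 66.3 to 87.6, 216.0 to 297.9 and 186.7 to 339.0 TPM. Markers of other cells were called higher too, namely 5 of 6 of stellate cells, 4 of 5 of endothelium and both tested markers of neutrophils. None of the 6 hepatocyte markers or of the 4 tested cholangiocyte markers was called higher, and the hepatocyte markers Pck1 and Tat were called lower. The part of macrophages and of the other cell types in the rise of C1q and Cfp was not tested.

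Some macrophage markers were lower with FGF21 than in MASH vehicle, and Marco was higher. The sum of those of recruited and lipid-associated macrophages was 18.4 to 24.4 TPM in chow, 73.8 to 102.8 in MASH vehicle and 40.7 to 66.0 in FGF21. Most of the sum was Cd9, with means of 55.2 TPM in MASH vehicle and 41.1 in FGF21, which was not called (limma adjusted p = 0.0869). The other 4 of the 5 tested members, Trem2, Gpnmb, Lpl and Itgax, were called lower in FGF21, where 4.28% of all genes were. Gpnmb and Itgax reached 1 TPM in the MASH vehicle libraries and in 1 other library only, so they were tested because they were high there. Of the 5 general macrophage markers Cd68 and Mpeg1 were called lower (limma adjusted p = 0.0188 and 0.0424). Of the 6 Kupffer markers none was called lower and Marco was called higher. Its means were 8.22 TPM in MASH vehicle and 24.4 in FGF21, and the groups overlapped (log2 fold change 1.29 ± 0.368, limma adjusted p = 0.0418). The C1q chains, lower by the amounts above, were not called, and whether they differed from these markers was not tested.

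**Figure D3:**
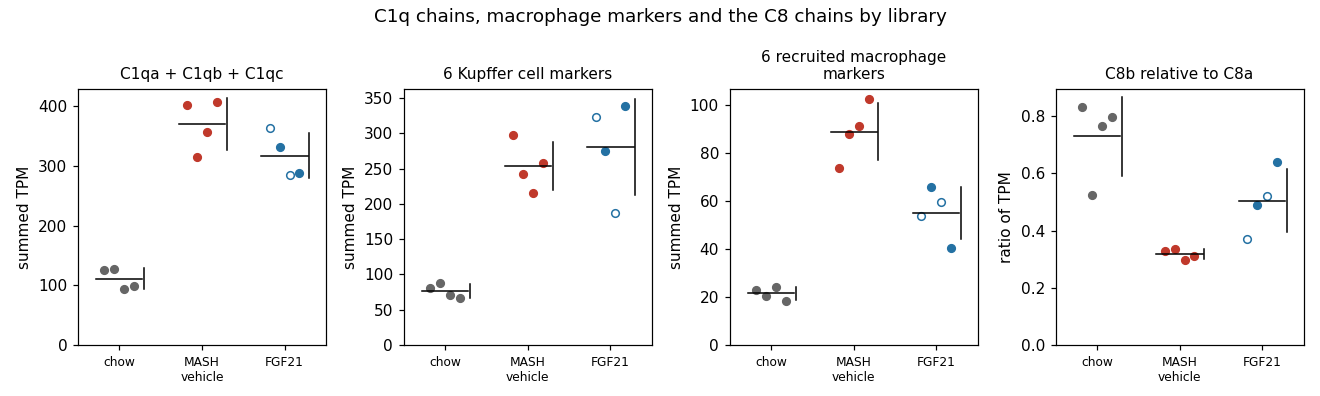
Summed TPM of the 3 C1q chains, of 6 Kupffer cell markers and of 6 recruited macrophage markers, and the ratio of C8b to C8a in TPM, for each library by group. Horizontal bars are means, vertical bars ±1 SD and open circles FGF21 replicates 1 and 3. The C1q and Kupffer sums of FGF21 overlap those of MASH vehicle, the recruited macrophage sums do not, and the C8 ratio is 0.296 to 0.336 in MASH vehicle against 0.526 to 0.831 in chow.

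The later classical components were steadier. The protease genes C1ra and C1s1, neighbours on chromosome 6, ranged over 116.2 to 212.6 and 151.9 to 207.8 TPM in all libraries, and C2 over 28.2 to 70.9. None of these was called in the diet comparison or with FGF21 against MASH vehicle. C1ra was called higher in FGF21 than in chow (log2 fold change 0.33 ± 0.118, limma adjusted p = 0.0321), a call that was lost in 8 alternatives, among them median-of-ratios scaling (0.462) and the fits without chow replicates 1 (0.0608) or 2 (0.106) or FGF21 replicates 2 (0.0594) or 4 (0.0828). C4b, which encodes C4 and was named after its values were seen, was at 556, 665.3, 654 and 756.1 TPM in chow, 881.9, 800.1, 902.5 and 966.8 in MASH vehicle and 821.9, 1227.1, 1001.9 and 1866 in FGF21. Its MASH vehicle libraries were above all chow libraries, but the comparison did not pass (limma adjusted p = 0.0931). It passed in 5 alternatives, among them those without FGF21 replicate 1 (0.0447) and without FGF21 replicate 4 (0.0161). It passed for FGF21 against chow (log2 fold change 0.84 ± 0.197, limma adjusted p = 0.00403), though not with the GC trend removed (0.116). C4b has a near-identical neighbour, C4a, and both could share reads.

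In the lectin route 3 sugar-binding proteins rose. Mbl1, mannose-binding lectin A, was at 109.6, 105.1, 127.8 and 130 TPM in chow, 184.6, 159.9, 169.1 and 197.1 in MASH vehicle and 167.3, 245.2, 176.2 and 218.8 in FGF21. Colec11, collectin kidney 1, was at 38.6, 53.7, 44.3 and 51.3 TPM in chow, 57, 62.1, 98.1 and 71.4 in MASH vehicle and 55.8, 70.7, 59.8 and 62 in FGF21. Fcna, ficolin A, was at 34, 41.4, 43.8 and 34.4 TPM in chow, 73.7, 70.6, 57.2 and 57.1 in MASH vehicle and 95.7, 107.2, 64 and 100.2 in FGF21. For each of them all MASH vehicle libraries were above all chow libraries.

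The log2 fold changes of MASH vehicle against chow were 0.59 ± 0.132, 0.59 ± 0.161 and 0.74 ± 0.161 for Mbl1, Colec11 and Fcna (limma adjusted p = 0.00439, 0.0129 and 0.00369). With median-of-ratios scaling Mbl1 (limma adjusted p = 0.0562) and Colec11 (0.113) were lost, and with the GC trend removed all 3 were (0.0599, 0.337 and 0.113). Fcna reached 1.22 ± 0.161 in FGF21 against chow (limma adjusted p = 0.000155). It did not pass against MASH vehicle (0.48 ± 0.161, limma adjusted p = 0.0753), but did without FGF21 replicate 3 (0.0144), the FGF21 library with the lowest Fcna.

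The other members of the lectin route were not called in the diet comparison or with FGF21 against MASH vehicle. Mbl2, the second mannose-binding lectin, ranged over 399.1 to 636.2 TPM, Masp2, the protease that cuts C4 and C2, over 233.6 to 326.4, and Masp1 over 23.6 to 47. Masp1 also encodes the form that activates pro-adipsin in plasma, and the table does not separate the forms. The 95% interval of its fold change on the MASH diet was -0.08 to 0.60.

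**Figure D4:**
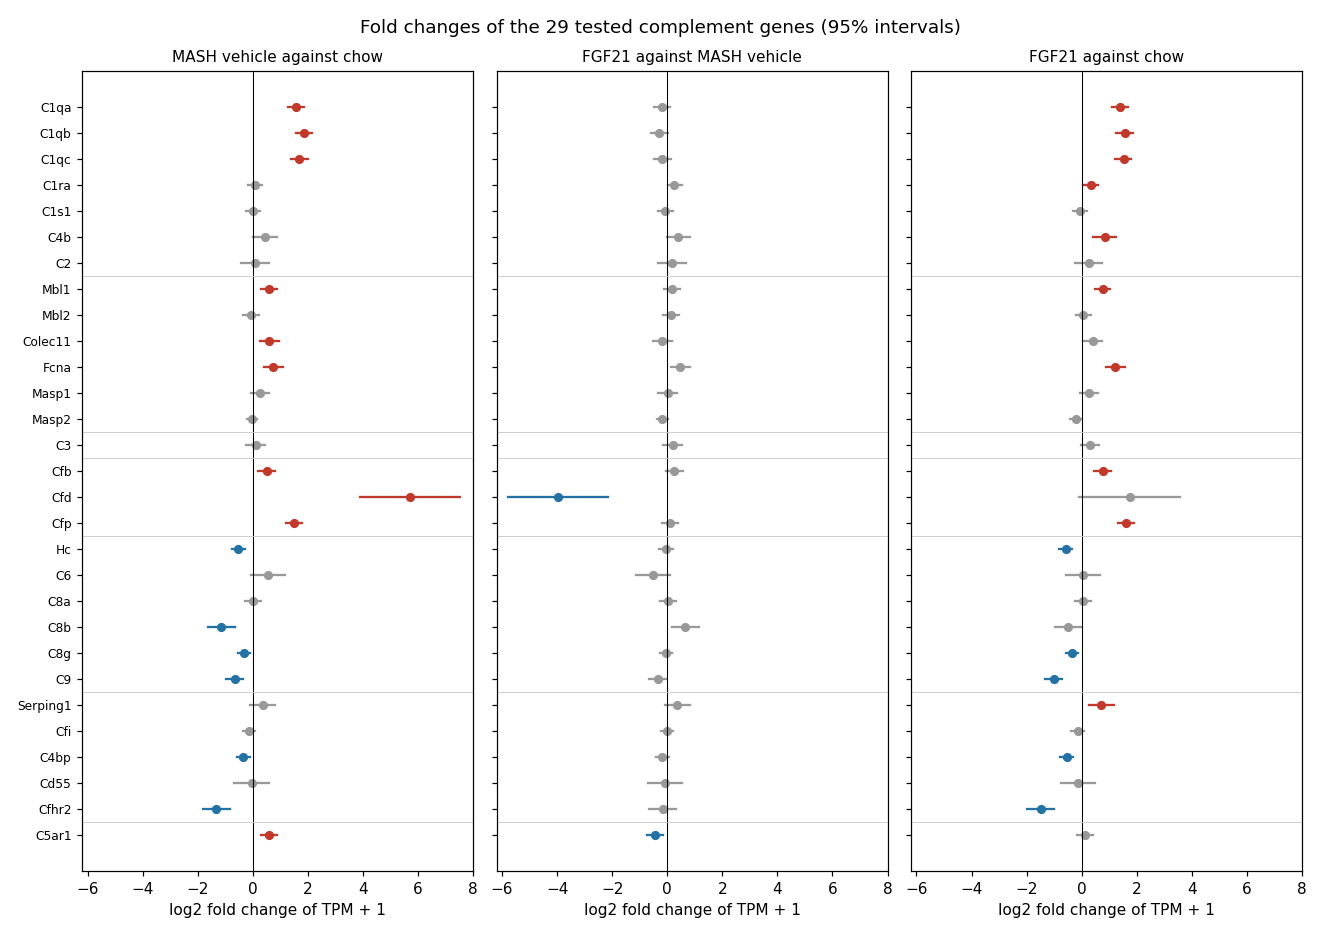
Log2 fold change on the scale of TPM + 1 with its 95% interval for the 29 tested complement genes in the 3 comparisons, grouped from top to bottom into classical with C4b and C2, lectin, C3, alternative, terminal, regulators and receptor. Red is called higher, blue called lower and grey not called at a limma adjusted p of 0.05. The diet column holds 10 higher and 6 lower calls, and in FGF21 against MASH vehicle Cfd and C5ar1 are called.

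The genes of the membrane attack complex fell on the MASH diet in 4 of 6 cases. C9, the pore-forming unit (chromosome 15, 6445327 to 6498751), was at 198, 191, 222.5 and 202.3 TPM in chow, 150.8, 113.9, 116.3 and 134.7 in MASH vehicle and 76.6, 105.4, 97.7 and 127 in FGF21. C8b, the beta chain of C8 (chromosome 4, 104766317 to 104804548), was at 86.8, 50.2, 115.1 and 108.7 TPM in chow, 39.8, 38.1, 38.6 and 36.4 in MASH vehicle and 46.5, 62.9, 56.7 and 83 in FGF21. Hc, which encodes C5 (chromosome 2, 34983331 to 35061438), was at 133, 96.7, 111.3 and 104.5 TPM in chow, 81.3, 68, 78.5 and 77.1 in MASH vehicle and 80, 73.3, 67.5 and 74.1 in FGF21. Every MASH vehicle library was below every chow library for these 3 genes.

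C8g, the gamma chain of C8, was at 714.2, 714.1, 677.8 and 687.1 TPM in chow, 606.7, 518.3, 535.7 and 592.2 in MASH vehicle and 468.6, 563, 647.5 and 519.9 in FGF21. It too was lower in every MASH vehicle library. The log2 fold changes were -0.66 ± 0.143 for C9, -1.15 ± 0.227 for C8b, -0.53 ± 0.111 for Hc and -0.31 ± 0.105 for C8g (limma adjusted p = 0.00341, 0.00194, 0.00275 and 0.0333). The first 3 of these calls held in all 23 alternatives. That of C8g was lost without any one of the chow libraries or of MASH vehicle replicates 2, 3 or 4 (limma adjusted p = 0.0507 to 0.0969).

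C8b did not follow its neighbour. C8a, the alpha chain, lies 11.1 kb from C8b on the other strand, and the proteins of both join in C8. C8a was at 95.5 to 150.2 TPM over all libraries, with a difference of 0.00 on the MASH diet (95% interval -0.29 to 0.30). The ratio of C8b to C8a was 0.831, 0.526, 0.766 and 0.796 in chow, 0.330, 0.336, 0.296 and 0.312 in MASH vehicle, and 0.371, 0.490, 0.520 and 0.639 in FGF21. The MASH vehicle ratios were below all others, and 3 of the 4 FGF21 ratios were below all chow ratios. C8b was higher in every FGF21 library than in every MASH vehicle library, a pattern seen in 7.47% of all genes in that direction. The difference of 0.66 ± 0.227 did not pass (limma adjusted p = 0.0828), but it did without chow replicate 2 (0.0233), the chow library with the lowest C8b, without FGF21 replicate 1 (0.0307) or in a fit of the 2 groups alone (0.041).

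C9 and Hc gave no call with FGF21 against MASH vehicle (log2 fold changes -0.35 ± 0.143 and -0.05 ± 0.111, limma adjusted p = 0.137 and 0.83). Both stayed below chow under FGF21 (-1.01 ± 0.143 and -0.58 ± 0.111, limma adjusted p = 0.000227 and 0.00134), and C8g did too (-0.35 ± 0.105, limma adjusted p = 0.0136). C6 ranged over 29.9 to 103.4 TPM and was not called in any comparison. Summed over the 6 genes, the terminal components came to 1177.4 to 1360.5 TPM in chow, 955.0 to 1082.4 in MASH vehicle and 834.8 to 1040.2 in FGF21.

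Among the regulators Cfhr2 (chromosome 1, 139804167 to 139858702), fell most. It was at 440.8, 519.2, 393 and 317.1 TPM in chow, 169.2, 179.5, 194.2 and 120 in MASH vehicle and 237.5, 116.9, 118.5 and 136.2 in FGF21. Every library on the MASH diet was below every chow library. The log2 fold change was -1.33 ± 0.226 against chow (limma adjusted p = 0.000688). FGF21 replicate 1, at 237.5 TPM, stood above the other 3 FGF21 libraries, and FGF21 against MASH vehicle did not pass with it or without it (limma adjusted p = 0.692 and 0.128). Cfhr2 has relatives of similar sequence that could share its reads, so its level is uncertain to that extent.

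C4bp, the binding protein that restrains C4b (chromosome 1, 130634773 to 130661632), was at 211.2, 222.7, 198.9 and 200.8 TPM in chow, 166.5, 160.4, 169 and 156.4 in MASH vehicle and 178.3, 124.9, 132.7 and 143.4 in FGF21. All MASH vehicle libraries were below all chow libraries, by 0.35 ± 0.109 on the log2 scale (log2 fold change -0.35, limma adjusted p = 0.023). The call was lost with the GC trend removed (0.41) and without chow replicates 1 (0.0537) or 2 (0.0656) or MASH vehicle replicates 2 (0.0574) or 4 (0.0623). With FGF21 against MASH vehicle C4bp passed without FGF21 replicate 1 (log2 fold change -0.29, limma adjusted p = 0.0423) and not with it (0.316). Serping1, the C1 inhibitor, was at 385.7 to 589.3 TPM in chow, 522.3 to 711.9 in MASH vehicle and 506.6 to 1154.5 in FGF21, and was called in FGF21 against chow (log2 fold change 0.72 ± 0.213, limma adjusted p = 0.0137), but not with median-of-ratios scaling (0.0696) or with the GC trend removed (0.16). Cfi, the protease that cuts C3b and C4b, was at 227.7 to 302.7 TPM and Cd55, which takes convertases apart on cell surfaces, at 2.1 to 7.8, and neither was called.

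The receptor genes for the fragments C3a and C5a were close to the resolution of the table, which is 0.1 TPM. C5ar1 was at 0.3, 0.5, 0.3 and 0.9 TPM in chow, 1.3, 1.1, 1.2 and 1.3 in MASH vehicle and 0.7, 0.7, 0.3 and 0.8 in FGF21. All MASH vehicle libraries were above all others. It was tested only because these 4 libraries reached 1 TPM, so that both directions below were set by the filter. Limma called it higher on the MASH diet (0.59 ± 0.135, adjusted p = 0.00498, or 0.0742 with the GC trend removed) and lower with FGF21 (-0.46 ± 0.135, adjusted p = 0.045). The second call was lost in 10 of the 18 alternatives in which C5ar1 was tested (limma adjusted p up to 0.104). In the rest of the 23 alternatives C5ar1 did not pass the filter and so could not be called. C3ar1 was at 0.2 to 0.3 TPM in chow, 0.6 to 0.9 in MASH vehicle and 0.4 to 0.5 in FGF21 and was not tested.

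With FGF21 on the MASH diet, then, 2 of the 29 genes were called against MASH vehicle, Cfd and C5ar1, both lower, where limma called 6.02% of all genes higher and 4.28% lower. The filter alone fixed the direction of C5ar1, which leaves Cfd. None of the 29 was called higher with all libraries in the fit, though 3 had an unadjusted p under 0.05. Groups did not overlap for 2 higher genes, C1ra and C8b, and 2 lower ones, Cfd and C5ar1, against 7.47% and 6.63% of all genes. The lack of higher calls depended on which FGF21 libraries were fitted. Without replicate 1 alone C4b, C8b and Serping1 were called higher, where 11.6% of all genes were. Without replicate 3 alone Fcna was, where 5.15% of all genes were. Without both replicates 1 and 3, the lower call left was Cfd. In that fit 7 genes were called higher, C3, C4b, Cfb, Serping1, Mbl1, Fcna and C8b, where 16.2% of all genes were.

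In that fit with 2 FGF21 libraries the log2 fold changes were 0.47 for C3, 0.77 for C4b, 0.54 for Cfb, 0.74 for Serping1, 0.39 for Mbl1, 0.68 for Fcna and 0.90 for C8b (limma adjusted p = 0.0348, 0.0067, 0.00657, 0.0131, 0.041, 0.00667 and 0.0275). Replicate 4 was the highest FGF21 library for 12 of the 27 genes with at least 1 TPM in all 12 libraries, among them C3, C4b, Cfb, Serping1, C1ra, C8b and C9. Replicate 1 was the highest FGF21 library for 10 of the 27, and MASH vehicle replicate 1 was highest in its own group for 11. The summed hepatocyte markers were highest in FGF21 replicate 4. Their sum was 63949 TPM in FGF21 replicate 4, against 52793, 57659 and 54419 in replicates 1, 2 and 3 and 44359 to 48800 in MASH vehicle. Alb made up most of it, at 40440.5 TPM in replicate 4, while Apoa1, at 15635.1, was lowest there of the 4 FGF21 libraries, so the markers did not all move one way. Their part in the result was not tested.

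Against chow, the FGF21 libraries had 10 of 29 genes higher (34.5%) and 5 lower (17.2%), where limma called 37.8% and 14.2% of all genes. Both shares were thus near those of all genes. Groups did not overlap for 10 higher and 6 lower genes, against 30.5% and 5.99% of all genes. Without FGF21 replicates 1 and 3 the calls were 14 higher and 6 lower, with C2, C3, Colec11 and Masp1 added to the higher and Masp2 to the lower, where 38.7% and 18.7% of all genes were called. This comparison and the others share libraries, so their values are set side by side without a test of likeness. The 3 C1q chains, Mbl1, Fcna, Cfb and Cfp were called higher than chow in both MASH groups, and Hc, C8g, C9, C4bp and Cfhr2 lower in both. Colec11, Cfd and C5ar1 were called higher and C8b lower in MASH vehicle and not in FGF21, and C1ra, C4b and Serping1 were called higher in FGF21 and not in MASH vehicle. A call in one comparison and not in the other is no test of their difference. Colec11 in FGF21 against chow lay at the threshold (limma adjusted p = 0.0509) and passed in 9 alternatives (0.0222 to 0.0499), and C8b passed in 4 (0.00575 to 0.0367).

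**Figure D5:**
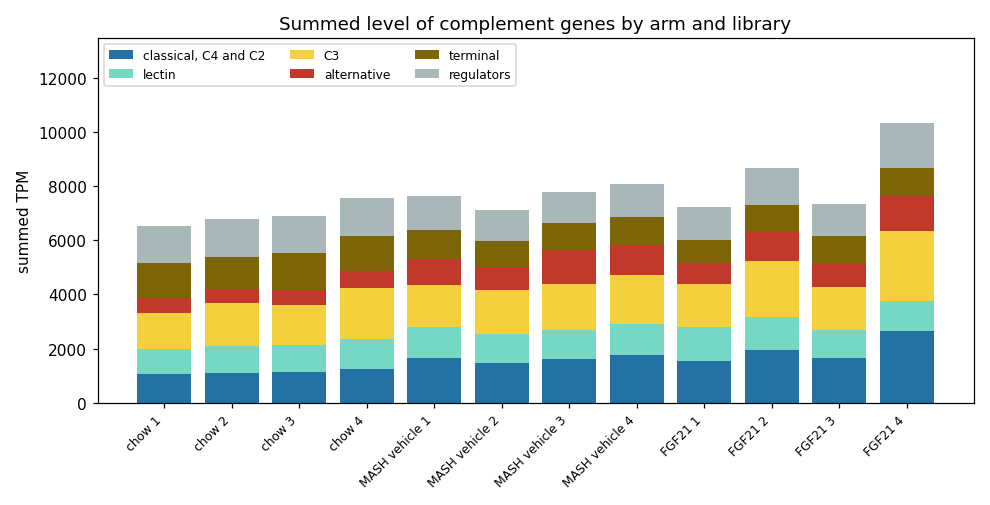
Summed TPM of the complement genes by arm in each library, as stacked bars (the 2 receptor genes, at most 2.2 TPM in sum, are not drawn). The terminal sum is 1177.4 to 1360.5 TPM in chow and 955.0 to 1082.4 in MASH vehicle, and FGF21 replicate 4 has the highest bar.

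As a share of the deposited TPM total of each library the 30 genes were a small and fairly even part. They took 0.652% to 0.757% of the total in chow, 0.713% to 0.810% in MASH vehicle and 0.731% to 1.04% in FGF21, which overlap. The classical components with C4b and C2 summed to 1038.7 to 1258.3 TPM in chow, 1450.1 to 1775.0 in MASH vehicle and 1529.4 to 2645.4 in FGF21, C4b being the largest part. The alternative components summed to 521.4 to 595.5, 861.1 to 1281.6 and 801.3 to 1289.0 TPM.

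A further 32 complement genes that are not among the 30 were listed, of which 25 were in the table and 19 were tested. On the MASH diet 5 rose and 4 fell, against 29.5% and 7.84% of all genes. Itgb2, the beta chain of the complement receptors on leukocytes, had means of 2.52 and 12.4 TPM in chow and MASH vehicle (log2 fold change 1.92 ± 0.147, limma adjusted p = 2.98e-06). Itgax, its partner in complement receptor 4, had means of 0.175 and 1.68 TPM and was tested only through its high MASH vehicle libraries and 1 other. Vsig4, the complement receptor of Kupffer cells, had means of 7.4 and 13 TPM.

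With FGF21 against MASH vehicle, Cpn2, a subunit of the carboxypeptidase that inactivates C3a and C5a, rose from 112.6 to 174.5 TPM (0.59 ± 0.166, limma adjusted p = 0.0402). Itgax, Cd59b, an inhibitor of the membrane attack complex, and C1qbp fell (limma adjusted p = 0.00419, 0.0356 and 0.0431). Itgax passed the filter only through its MASH vehicle libraries and FGF21 replicate 4, at 1.1 TPM, which favoured a lower value with FGF21. Of the 19 tested genes 1 was thus called higher and 3 lower, where 6.02% and 4.28% of all genes were.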

How the data were processed

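RNA of whole liver was enriched with oligo-dT, per the labels' protocols, and Trim Galore 6.10, Salmon 1.10.2 and build mm10 are listed in the submitters' processing notes. The authors deposited 1 value per gene symbol and library. The sheet is called FPKM, but the values sum to just under 1000000 per library and were read as TPM, rounded by the authors to 1 decimal. The gene annotation used for them is not given in the sources used here. All 12 value columns were matched to samples by library name (0 unmatched).

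Values were taken as log2(TPM + 1), which understates changes of low genes. Genes with at least 1 TPM in at least 4 libraries (10988 of 14822) were fitted in limma 3.58.1 (R 4.3.3) with 3 groups and the trend and robust options. Tests were two-sided, with Benjamini-Hochberg adjustment over all genes tested and a threshold of 0.05. The fit was tested on simulated data. Means are over n = 4 libraries, and errors of fold changes are SE. Coordinates are from GENCODE M21 on GRCm38, the assembly of mm10. Values in every library are given for the members called in MASH vehicle against chow or FGF21 against MASH vehicle and for C3, Cfb, Cfd and Hc, and at most the 5 largest changes among other complement genes, of which some are not reported here. The members and lists were chosen with earlier results of these data known. Alternatives were other pseudocounts (0.1 and 5), filters, scalings, a GC correction, fits of 2 groups, a test without the trend and robust options, a replicate block and left-out libraries. Promoter motifs were chosen after the sequences were seen.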

Additional observations from a re-analysis of the deposited data

Results flagged for a closer look

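Each of the 30 genes was screened in each group of 4 libraries for a highest or lowest library whose gap to the nearest other library was, as a share of the whole range of the group, above Dixon's critical value at 95% for 4 samples. Of 90 such screens 3 were past it, and chance flags about 1 in 20. Cd55 was at 7.8 TPM in FGF21 replicate 1 and at 2.1 to 2.9 in the other FGF21 libraries, a gap of 0.86 of the range. Cfhr2 was at 237.5 TPM in FGF21 replicate 1 and at 116.9 to 136.2 in the others, a gap of 0.84. FGF21 replicate 1 is also one of the pair of libraries with high Cela1. C3ar1 was at 0.2 TPM in chow replicate 4 and at 0.3 in the other chow libraries, which is 1 step of the rounding of the table.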

How the results depend on the processing

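Over 1983 values of single genes under the alternatives, 1894 stayed on their side of the threshold, 47 came to pass and 42 ceased to pass. No called value changed sign, but 67 values that were not called did. Changes of Cfd in MASH vehicle against chow and in FGF21 against MASH vehicle passed in all 23 alternatives, the latter at -4.58 to -3.16 on the log2 scale (limma adjusted p = 0.00925 to 0.044). For MASH vehicle against chow, 10 genes were higher and 6 lower. With median-of-ratios scaling these were 7 and 8 (14.5% and 18% of all genes), and with the GC trend removed 5 and 5 (13.0% and 13.7%), where the deposited scale gave 29.5% and 7.84% of all genes. Over all genes tested the log2 fold change had a median of 0.19 as deposited and -0.02 with the GC trend removed, so changes are relative to that shift. For FGF21 against chow, 10 were higher and 5 lower, against 8 and 8 with median-of-ratios scaling. With FGF21 replicates 1 and 3 both left out, FGF21 against MASH vehicle gave 7 higher and 1 lower. With all libraries it gave 0 higher and 2 lower, the latter 1 with a filter of 5 TPM, with median-of-ratios scaling, with the GC trend removed, with a pseudocount of 0.1 or without the trend and robust options. The fit of 2 groups gave 1 higher. Leaving out 1 library at a time gave 9 to 11 higher and 4 to 6 lower for MASH vehicle against chow, 0 to 3 and 1 to 3 for FGF21 against MASH vehicle, and 9 to 12 and 5 to 6 for FGF21 against chow. The causes were not tested. Libraries with the same replicate number did not deviate together in every pair (correlations -0.176 to 0.405), though all pairs of replicates 1 and of replicates 4 were positive (0.258 to 0.405). Pairs with different numbers ran from -0.501 to 0.431, which overlaps. The numbers were not taken as pairs, and whether they are pairs was not tested. With the replicate block the counts were 11 and 6, 0 and 2, and 12 and 5. The rounding to 0.1 TPM limits what the receptor genes can show.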

Other observations

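The lipid droplet genes Cidea and Cidec were looked at after the values of Cfd were seen. Cidea was at 1.6, 4.2, 0.2 and 2.6 TPM in chow, 42, 104.7, 118.1 and 104.5 in MASH vehicle and 1.1, 16, 19.9 and 3.4 in FGF21. Cidec was at 4.9, 29.4, 10.9 and 15.6 TPM in chow, 338.3, 390.9, 342.6 and 467.9 in MASH vehicle and 41.9, 171.9, 155.5 and 55 in FGF21. FGF21 replicates 2 and 3 were the highest of their group for Cfd, Cidea and Cidec.

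The ratio of Cfb to C3 was 0.301 to 0.385 in chow, 0.420 to 0.507 in MASH vehicle and 0.454 to 0.479 in FGF21, with no overlap between chow and the MASH diet groups.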
